A study of Triticum aestivum with 8 samples.

Results

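The embryo of the wheat grain was compared before it took up water and 24 h later, when its root had grown out. The comparison uses 5 of the 8 arrays of the study: 2 of dry-seed embryos and 3 of embryos imbibed for 24 h, assigned by the sample titles. The other 3 arrays, of embryos imbibed for 16 h, entered the statistical model's estimate of the spread, the choice of probes to test and the mean of each spike-in. They entered no difference given below, apart from alternative settings such as quantile scaling, which took in all 8 arrays. All grains were of the bread wheat (Triticum aestivum) cultivar Norin61, with no other genotype and no added agent. Grains were rinsed after a soak in 1% hypochlorous acid and kept on wet cotton at 25 °C without light, and a grain entered the 24 h group only if its radicle, the embryonic root, measured at least 7 mm. Each array received RNA from a pool of 7 embryos, 200 ng of total RNA per labelling reaction, so a value is an average over 7 embryos and over all their tissues. In such bulk samples, fewer cells of a type and less RNA per cell cannot be told apart. Selection by radicle length applied to imbibed grains and not to dry ones. The labels give 21 seeds and 3 pools per stage, while dry seed has 2 arrays. Whether the pools came from separate growths is not stated, so p-values here measure the spread among pools, some of which may be technical.

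A dry cereal embryo holds stored messenger RNA, made while the grain matured and kept through drying. Among the products of late maturation that plant embryos are known for are chaperones and proteins that protect cells against water loss. On imbibition the embryo takes up water, respires, breaks down part of the stored RNA and resumes transcription, and growth of the radicle follows, by cell expansion and then division.

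The arrays carry 43603 wheat probes, named in the files by a probe ID and a sequence name. None of the 40253 sequence names matched a gene of the wheat reference table, so apart from 5 mnemonic names the probes carry no gene function here, lists of genes by function could not be drawn up, and the tissue label could not be checked against embryo or endosperm markers. Across the tested probes the dry-seed arrays correlated with each other at 0.990 (Pearson) and the 24 h arrays at 0.988 to 0.995, while a dry-seed array and a 24 h array correlated at 0.728 to 0.736. These are descriptions across probes, which are not independent replicates. Each group lay on both slides of the experiment, with dry seed replicate 1 and 24 h replicate 1 on one slide and the other 3 of these arrays on the other. Between 3 and 13 spots per array were set aside as outliers, and none was saturated. The number of arrays, 2 and 3, limits the precision of every value: an exact permutation test on 2 against 3 arrays has 10 splits and cannot give a two-sided p below 0.1.

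How much transcript signal the embryo gave was read against added control RNA, the spike-ins, which the E1A_r60 probes measure. Wheat signal was far higher against these spike-ins after 24 h. The 75th percentile of the wheat probes stood 7.58 and 7.40 log2 units above the array's spike-in offset in dry seed and 10.67, 11.25 and 11.04 at 24 h. All 24 h arrays lay above both dry-seed arrays, by 3.50 on average or 11.3-fold (p = 0.1 in an exact two-sided permutation, the lowest value reachable). The difference was 3.09 on the slide that carried replicate 1 of each group and 3.75 on the other. Counted as the sum over all wheat probes, the gain was 8.47-fold, or 3.08 log2 units (exact two-sided permutation test, p = 0.1). The spike-in probes themselves were dimmer at 24 h, by -0.94 to -0.48 on the log2 scale over the 8 used, and 15 other control probes of the DCP series were lower by a median of -0.94. Which RNA the DCP probes read was not established. DCP_20_0, at 10.89 and 10.92 in dry seed, lay close to E1A_r60_a20 at 10.88 and 10.95, so the series is no independent check. Without spike-in scaling the 75th percentile was 262 and 246 in dry seed and 1367, 1722 and 1623 at 24 h in linear units, so most of the difference was there before it. Every labelling began with the same mass of total RNA, and the labels do not say how much control RNA was added or at which step, so these values are per mass of RNA and not per embryo.

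Each spike-in probe also works as a mark on the brightness scale, at which wheat probes can be counted. The probe E1A_r60_1, the brightest, was outshone by 0 wheat probes on either dry-seed array and by 19, 70 and 37 on the 24 h arrays. The probe E1A_r60_n9 was outshone by 9 and 4 wheat probes in dry seed and by 292, 425 and 327 at 24 h. Further down, E1A_r60_a97 had 480 and 394 wheat probes above it in dry seed and 2948, 4012 and 3564 at 24 h. The groups did not overlap at any of the 8 marks. At E1A_r60_a107, the dimmest, the counts were 19191 and 18541 against 28274, 29593 and 29766. The ratio between the stages was much smaller there than at the bright end. No count can exceed the 43603 wheat probes, which limits this ratio at the dim end, so it does not show that bright signals gained more.

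**Figure D1:**
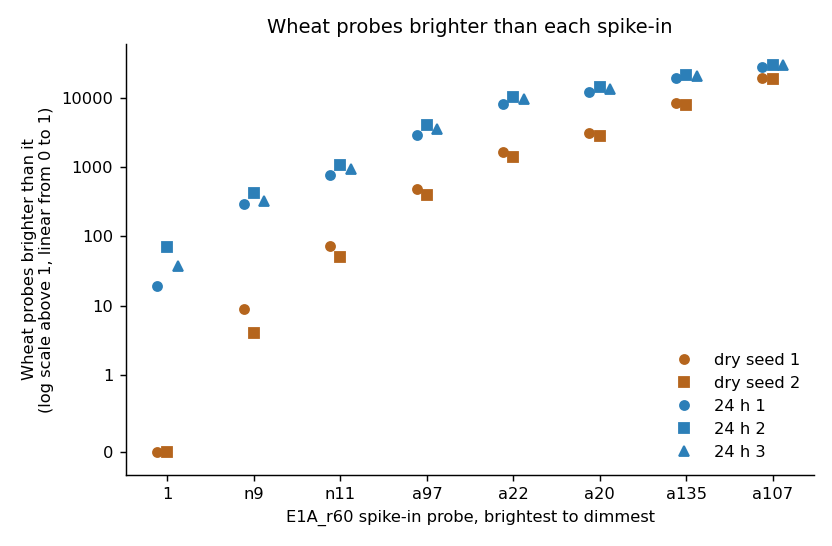
The number of wheat probes brighter than each of the 8 E1A_r60 spike-in probes (vertical axis, log scale above 1 and linear from 0 to 1), with the spike-ins ordered from brightest to dimmest along the horizontal axis and 1 point per array. Above the brightest spike-in there were 0 wheat probes in dry seed and 19 to 70 at 24 h, and at every spike-in the 24 h points lie above the dry-seed points.

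Within an array, the signal of the dry embryo was concentrated on fewer probes. This description does not depend on the scaling between arrays, since it uses shares of each array's own signal. The brightest probe of each array held 0.849% and 1.02% of the wheat signal in dry seed and 0.329%, 0.269% and 0.268% at 24 h. The 10 brightest held 5.31% and 5.02% in dry seed and 2.43%, 2.18% and 2.27% at 24 h. The groups stood apart at each step of this count. The 100 brightest probes of each array held 24.6% and 23.6% in dry seed and 16.2%, 15.4% and 15.4% at 24 h, a difference of -8.46 percentage points (exact two-sided permutation test, p = 0.1).

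The same change can be counted in probes. To reach 50% of the signal took the 446 and 489 brightest probes in dry seed and the 703, 746 and 754 brightest at 24 h, a mean difference of 267 probes (exact two-sided permutation test, p = 0.1). To reach 10% took 24 and 26 probes in dry seed and 54, 58 and 59 at 24 h. As a ratio, the stages differed most at the bright end. For 90% of the signal the counts were 5451 and 5691 against 6672, 6955 and 6924.

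**Figure D2:**
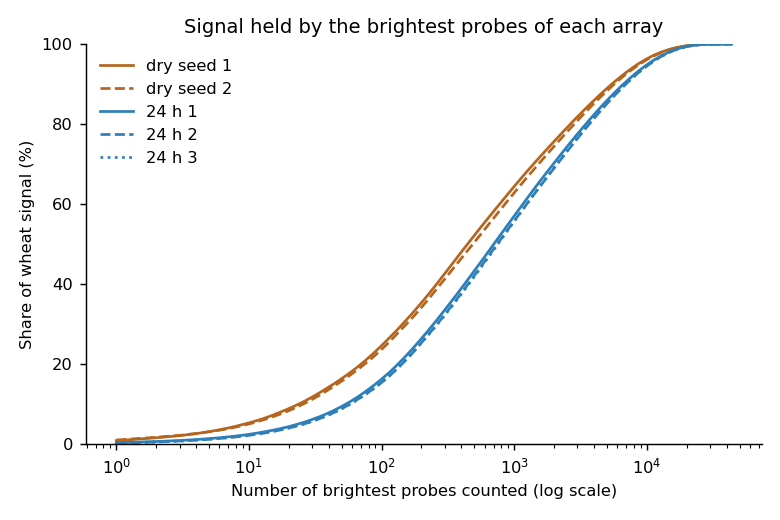
The share of an array's wheat signal (vertical axis, percent) held by its brightest probes, counted from the brightest along the horizontal axis (log scale), with 1 line per array. The dry-seed lines run above the 24 h lines, and at 100 probes they stand at 24.6% and 23.6% against 15.4% to 16.2%.

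The brightest signals stood less far above the rest at 24 h. On the scale of log2 signal relative to the array's 75th percentile, used for all levels from here on, the 99.9th percentile of all wheat probes fell from a mean of 8.33 in dry seed to 7.46 at 24 h. The 90th percentile differed by -0.17 and the 99th by -0.31. The central part of the range differed little. Over the 24079 probes well above background on all 5 arrays, the interquartile range was 3.82 and 3.82 in dry seed and 3.73, 3.70 and 3.68 at 24 h, a difference of -0.11 (exact two-sided permutation test, p = 0.1). With normexp background correction, which adds an offset of 50, that difference turned to 0.63. Its direction thus depends on this processing, and the part of the offset was not tested. At the dim end of the same probes the stages differed more: the 1st percentile lay at -4.53 and -4.42 in dry seed and at -6.07, -6.09 and -5.98 at 24 h, and the 10th percentile differed by -0.54. From the 1st to the 99th percentile these probes spanned 11.38 and 11.20 log2 units in dry seed and 12.51, 12.40 and 12.29 at 24 h. They were chosen as well above background on all 5 arrays. The detection floor lay at -5.09 and -4.78 in dry seed and at -7.08, -7.36 and -6.84 at 24 h. That choice cuts the dim end higher in dry seed, so these values do not show that the dim end itself reached further down.

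More probes were detected at 24 h, but the count follows how far below the 75th percentile an array can see. By the scanner flag, 26165 and 25322 probes were well above background in dry seed and 31377, 32007 and 30646 at 24 h. The dimmest signal well above background lay at -5.09 and -4.78 relative to the 75th percentile in dry seed and at -7.08, -7.36 and -6.84 at 24 h. The arrays of imbibed embryos thus reached about 2 log2 units deeper. When 1 floor of -4.78 was used for all arrays, 26006 and 26033 probes passed it in dry seed and 26248, 26194 and 26421 at 24 h, and the mean difference shrank from 5600 to 268 probes.

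Between these stages most of the measured transcript set changed by 2-fold or more. Of 30833 tested probes, 17350 (56.3%) were called changed by limma at an adjusted p below 0.05 and at least 2-fold, 9039 (29.3%) higher and 8311 (27.0%) lower at 24 h. Without the minimum on fold, 24295 probes passed the adjusted p. The balance was different under normexp background correction, which adds an offset of 50: 4748 were higher and 12591 lower, and 1166 of the calls turned to the opposite direction. The part of the offset in this was not tested. On each slide alone, 17347 of the 17350 called probes moved the same way and 15897 moved at least 2-fold on both, which the calls largely fix, since they were made on these arrays. The share of the signal moved away from probes called lower, toward probes called higher and tested probes without a call. Probes called lower held 53.7% and 53.5% of the signal in dry seed and 10.66%, 11.04% and 10.79% at 24 h. Probes called higher held 6.17% and 6.05% in dry seed and 37.0%, 36.0% and 37.3% at 24 h. These shares were read on the arrays that made the calls, so they describe the calls and add no test. Tested probes without a call made up the remaining 40.1% and 40.3% in dry seed and 51.8% to 52.9% at 24 h, apart from about 0.1% in probes too dim to test.

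Changes were sized over probes measured at both stages, a limit that acts unequally on rises and falls. Over the 24078 tested probes well above background on all 5 arrays, 5411 were called higher and 7340 lower, with a median change of 3.58-fold for the former and 3.70-fold for the latter. A rise of at least 64-fold was measured for 56 probes and a fall of that size for 318. At 256-fold the counts were 6 and 162, and at 1024-fold 0 and 21. The dimmest detectable signal lay about 2 log2 units higher in dry seed, so among these probes a rise meets the limit of detection sooner than a fall, and the unequal counts do not show that the changes themselves were unequal. Over all tested probes, with values below background included as fitted, 440 rises and 437 falls reached 64-fold.

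**Figure D3:**
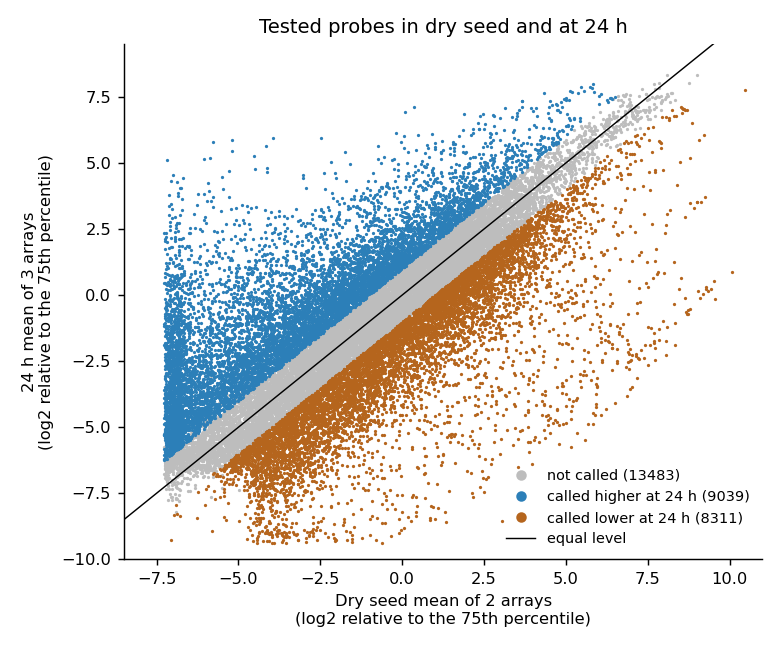
Each of the 30833 tested probes by its mean level on the 2 dry-seed arrays (horizontal axis) and on the 3 arrays at 24 h (vertical axis), both as log2 signal relative to the array's 75th percentile, with probes called higher in blue, called lower in brown and not called in grey. Rises and falls reach similar distances from the line of equal level, with 22 and 25 probes at 1024-fold or more, and rises pile up at the left edge, where dry-seed signals lie below background.

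What counts as a fall depends on the reference. Relative to the spike-ins, 28775 probes (93.3%) were called, 28005 (90.8%) higher and 770 (2.5%) lower, and the median change over tested probes was 3.54 on the log2 scale against 0.04 relative to the 75th percentile. All 770 belonged to the 8311 called lower relative to the 75th percentile. Of the rest of the probes called lower on that scale, 5498 were called higher relative to the spike-ins and 2043 were not called. Of the 13483 probes without a call, 13468 were higher relative to the spike-ins. For most probes lower at 24 h, the fall is therefore a fall in share of the signal and a rise against the added RNA.

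The 770 probes lower on both scales were few, and only part of them were among the brightest in dry seed. They make up 1.77% of the wheat probes, and they held 24.3% and 23.5% of the signal in dry seed and 0.350%, 0.217% and 0.278% at 24 h. Like the shares above, these were read on the arrays that made the calls and add no test. Their median fall relative to the spike-ins was 7.17-fold, with 365 falling at least 8-fold, 55 at least 64-fold and 12 at least 128-fold. In dry seed 241 of them stood among the 1000 brightest probes and 432 among the 5000 brightest, with a median rank of 3726. At 24 h the best placed held rank 1605. Of the 770, 532 were well above background on all 5 arrays.

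Ranks within an array gave the same picture without any scaling. A rank here orders the signals of probes, and since a probe's brightness also depends on its own hybridisation, ranks are compared only between stages. The dry-seed arrays shared 6 of their 10 brightest probes with each other and pairs of 24 h arrays shared 8 or 9, but a dry-seed and a 24 h array shared 0. Of the 100 brightest, replicates shared 91 in dry seed and 89 to 94 at 24 h, and pairs across the stages shared 26 to 31. Of the 1000 brightest, replicates shared 949 and 928 to 959, and pairs across the stages 526 to 544. The overlap between stages thus grew with depth in the ranking and at 5000 probes reached 3174 to 3230, against 4808 between dry-seed replicates and 4706 to 4843 between 24 h replicates.

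Over the whole ranking, Spearman's rho was 0.993 between dry-seed replicates, 0.989 to 0.997 between 24 h replicates and 0.744 to 0.754 between the stages, over 30819 tested probes with a value on all 5 arrays. Across the stages 26.9% to 28.2% of these probes stayed in the same decile of the ranking, against 80.5% between dry-seed replicates and 75.3% to 86.0% between 24 h replicates. A move of 3 or more deciles was made by 16.5% to 17.8% of probes across the stages and by at most 0.305% between replicates. Counted in places among all wheat probes, the median move from dry seed to 24 h was 3078 over the 24078 probes measured on all 5 arrays. The median difference was 369 places between the dry-seed arrays and 296 to 527 between 24 h arrays. A move of over 10000 places was made by 1856 probes, of which 1126 fell and 730 rose, against 2 between dry-seed replicates and at most 17 between 24 h replicates. Fewer probes were well above background in dry seed, 26165 and 25322 against 30646 to 32007 at 24 h. Measured probes could thus hold lower ranks at 24 h, and the unequal counts do not show that more probes fell than rose.

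Whole deciles of the dry-seed ranking were followed to 24 h. Of the 3083 tested probes in the brightest decile of dry seed, 58.7% were in the brightest decile at 24 h and 19.9% in the next one, while decile 6 kept 20.5% of its probes; a decile at the end of a ranking can be left in 1 direction only, which favours staying. In the brightest decile 47.0% were called lower and 8.14% higher at 24 h, and 11.8% were lower relative to the spike-ins as well. These deciles are cut on dry-seed values that enter the change, so calls of lower in the bright deciles are partly built in. Cut on 24 h values instead, the brightest decile had 40.4% called higher and 10.2% lower, and the dimmest 6.36% higher and 52.3% lower. In the decile with the dimmest dry-seed signals 73.6% were called higher and 0.259% lower, but 0% of those probes were well above background on both dry-seed arrays, so their changes rest on fitted values.

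**Figure D4:**
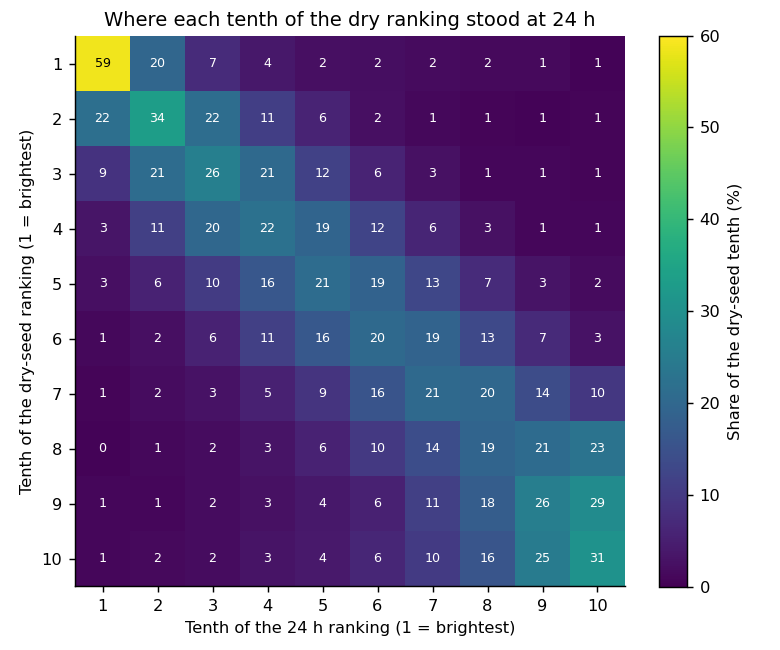
For each decile of the dry-seed ranking of tested probes (rows, 1 the brightest), the percentage of its probes found in each decile of the 24 h ranking (columns). The brightest decile, which can be left in 1 direction only, kept 58.7% of its probes, and in the middle of the ranking each decile spread over most of the others.

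Many of the brightest signals of the dry embryo left the top of the ranking, and others kept a place there. The sets that follow were picked for brightness in 1 stage, so a lower level in the other stage is partly built in, and their counts are descriptions. All 10 of the brightest dry-seed probes were called lower at 24 h, against 27.0% of all tested probes, 7 of them by at least 64-fold, and their median rank went to 9452.5. Of the 100 brightest, 74 were called lower, 26 were not called and 0 were called higher, 34 fell at least 64-fold, and 46 were lower relative to the spike-ins while 45 were higher. At 24 h, 29 of these 100 stood within the top 100, 24 more within the top 1000, 12 within the top 5000, 27 within the top 15000 and 8 lower still. The set thus spread from the top of the ranking to beyond rank 15000. Of 999 tested probes among the 1000 brightest, 523 were called lower and 51 higher, and 129 of the 1000 ended beyond rank 15000.

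Probe A_99_P544312 (sequence TC450123) was the brightest of the dry embryo, rank 1 on both arrays. Its level was 10.37 and 10.55 in dry seed and 7.92, 7.62 and 7.69 at 24 h. It fell by 6.57-fold (log2 change -2.72, SE 0.16, limma adjusted p = 3.26e-06) and yet still ranked 12 to 18 at 24 h, with the groups far apart. On the spike-in scale it was 0.78 higher (SE 0.26, limma adjusted p = 0.00957), below 2-fold. With quantile scaling its change was -0.88, below 2-fold too, since that scaling gives every array the same set of values.

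The next brightest behaved differently. Probe A_99_P157032 (CD907899) stood at 10.16 and 9.98 in dry seed and at 0.50, 1.05 and 1.07 at 24 h, and went from rank 2 to ranks 7197 to 9168. That was a 586-fold fall (log2 change -9.19, SE 0.24, limma adjusted p = 1.12e-07), and 51.8-fold relative to the spike-ins. Another probe of the same sequence, A_99_P233236, stood at 9.66 and 9.20 in dry seed and at -0.04, 0.49 and 0.28 at 24 h, with the same log2 change of -9.19 (SE 0.23, limma adjusted p = 1.08e-07). Both probes of CD907899 thus showed the same fall, with no overlap between stages on any array.

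Probe A_99_P233216 (TA62540_4565) fell from 9.62 and 9.46 to -0.44, 0.17 and -0.19 (log2 change -9.70, SE 0.24, limma adjusted p = 1.06e-07). Probe A_99_P540297 (TA61351_4565) fell from 9.62 and 9.44 to 1.76, -0.42 and 0.25 (log2 change -9.00, SE 0.60, limma adjusted p = 5.11e-06). It was the least even of the 5 at 24 h, with replicate 1 about 2 log2 units above replicate 2, a spread still small against the fall. Relative to the spike-ins A_99_P233216 was 73.3-fold and A_99_P540297 45.3-fold lower. Together with both probes of CD907899, these had held between 0.459% and 0.710% of the dry-seed signal each, and at 24 h each held at most 0.00165%.

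The brightest signals at 24 h had mostly been bright before. All 10 of the brightest probes at 24 h stood within rank 619 in dry seed; 4 were called higher and 6 were not called. Of the 100 brightest at 24 h, 38 were called higher, 5 lower and 57 not called, against 29.3% higher and 27.0% lower of all tested probes. Among these 100, 88 had been among the 1000 brightest in dry seed. The set reached further into the dim end only at greater depth: of the 1000 brightest, 394 were called higher, 25 by at least 64-fold, and 21 had stood beyond rank 15000.

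Probe A_99_P574228 (CK162286) ranked 1, 2 and 1 at 24 h and 11 and 21 in dry seed. Its level was 9.20 and 8.79 in dry seed and 8.60, 8.20 and 8.23 at 24 h, so it took the lead at a somewhat lower level (log2 change -0.65, SE 0.18, limma adjusted p = 0.00985, below 2-fold), and the stages did not overlap but lay close. The probes A_99_P587687 and A_99_P630151, both of sequence DR735425, went from mean ranks 57 and 86 to 2 and 3. Their levels overlapped between the stages, at 8.26 and 7.93 against 8.57, 8.22 and 8.22 for A_99_P587687 and at 7.98 and 7.68 against 8.18, 7.87 and 8.02 for A_99_P630151, with log2 changes of 0.24 (SE 0.18) and 0.20 (SE 0.15). Neither passed the test, with limma adjusted p = 0.243 and 0.274. These probes gained places while others left the top.

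Probe A_99_P468292 (DQ665784) held a level of 8.81 and 8.71 in dry seed and 8.11, 8.00 and 7.94 at 24 h, and still moved from rank 24 to 4 (log2 change -0.74, SE 0.14, limma adjusted p = 0.00131, below 2-fold). Probe A_99_P474112 (AK335485) was the one among the 5 brightest that rose. It went from 5.88 and 5.76 to 8.05, 7.87 and 8.04, a 4.49-fold increase with no overlap (log2 change 2.17, SE 0.22, limma adjusted p = 4.97e-05), from rank 482 to 5.

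A core of 23 probes was among the 100 brightest on all 5 arrays. Of these, 21 were not called, 2 were lower and 0 were higher, as a set chosen for brightness at both stages. Among all 30833 tested probes, 13483 were not called. The 5 with the highest mean over both stages were A_99_P544312, A_99_P574228, A_99_P468292 and A_99_P587687, described above, and A_99_P517142 (DR738191). The last stood at 8.32 and 8.15 in dry seed and at 7.81, 7.65 and 7.52 at 24 h (log2 change -0.57, SE 0.13, limma adjusted p = 0.00494, below 2-fold). Relative to the spike-ins, however, the uncalled probes among these 5 were higher at 24 h. Their log2 changes were 2.85 for A_99_P574228, 2.76 for A_99_P468292, 3.74 for A_99_P587687 and 2.93 for A_99_P517142.

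The largest rises were sought among called probes measured on all 5 arrays whose groups did not overlap, 1 per sequence name. Among all tested probes, the 24 h values lay all above the dry-seed values for 44.3% and all below for 42.6%, so the lack of overlap by itself says little. Probe A_99_P229621 (TA61444_4565) rose most, from -4.00 and -3.89 in dry seed to 6.02, 5.82 and 5.93 at 24 h. This was a 936-fold rise, and 10573-fold on the spike-in scale (log2 change relative to the 75th percentile 9.87, SE 0.25, limma adjusted p = 1.12e-07), that carried it from ranks 23646 and 23354 to ranks 338 to 365. Its share of the wheat signal went from 4.3e-05% to 0.0536%. Probe A_99_P532422 (TA61467_4565) followed at -4.56 and -3.75 against 5.75, 5.60 and 5.55 (log2 change 9.79, SE 0.27, limma adjusted p = 1.32e-07). The best rank by mean level among the 10 largest rises was 339 at 24 h, so these 10 remained below the top of the ranking. Rises from below background in dry seed are not in this list.

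Probes A_99_P530087 (TA66390_4565) and A_99_P247391 (TA66389_4565) rose 615-fold and 487-fold, to ranks 834 and 812. Probe A_99_P215401 (TA56268_4565) started higher than the rest, at -2.55 and -2.38, and reached 6.20, 5.66 and 5.96, a 339-fold rise to rank 339 (log2 change 8.41, SE 0.32, limma adjusted p = 4.61e-07). The rest of the 10, A_99_P546587 (Y09917), A_99_P262906 (TA70809_4565), A_99_P156142 (AF107024), A_99_P558157 (CA615553) and A_99_P237411 (TA63694_4565), rose between 165-fold and 440-fold. Sequences with several probes allowed a check on size. Both other probes of Y09917 were called higher, A_99_P093810 by a fitted 10.704 and A_99_P505304 by a fitted 6.96 on the log2 scale, each from below background on both dry-seed arrays, so these sizes are not measured. The other probe of AF107024, A_99_P205596, rose by 3.47 against 7.46 for A_99_P156142, so the probes of that sequence share a direction and not a size.

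Among probes measured on all 5 arrays and relative to the 75th percentile, the largest falls exceeded the largest rises. Against the spike-ins the order was the opposite, with the 10 largest rises between 1865-fold and 10573-fold and the 10 largest falls between 130-fold and 189-fold. Probe A_99_P388492 (TA107620_4565) fell from 5.60 and 5.54 to -5.06, -5.74 and -5.67, from rank 571 to ranks 26992 to 28585. Its fall was 2133-fold (log2 change -11.06, SE 0.34, limma adjusted p = 2.06e-07) and 189-fold relative to the spike-ins. The 24 h values lie near or below the dimmest signals detectable in dry seed, -5.09 and -4.78.

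The rest of the 10 largest falls were nearly as steep, between 1466-fold and 1886-fold. Probe A_99_P248541 (TA66706_4565) stood at 6.91 and 6.81 in dry seed and at -3.51, -3.98 and -3.95 at 24 h (log2 change -10.68, SE 0.19, limma adjusted p = 6.11e-08). Probe A_99_P163432 (U80037) stood highest of the 10 in dry seed, at 7.05 and 7.00, and fell to -3.31, -4.11 and -3.06 (log2 change -10.52, SE 0.28, limma adjusted p = 1.23e-07). The other probe of that sequence, A_99_P248551, fell by 9.03 on the log2 scale. The others were A_99_P455482 (TA78756_4565), A_99_P301751 (TA82191_4565), A_99_P248536 (TA66705_4565), A_99_P064570 (CD910579), A_99_P171899 (BJ289438), A_99_P379852 (TA105498_4565) and A_99_P248566 (TA66712_4565). All 10 held dry-seed ranks between 193 and 764 and 24 h ranks between 22883 and 28415.

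**Figure D5:**
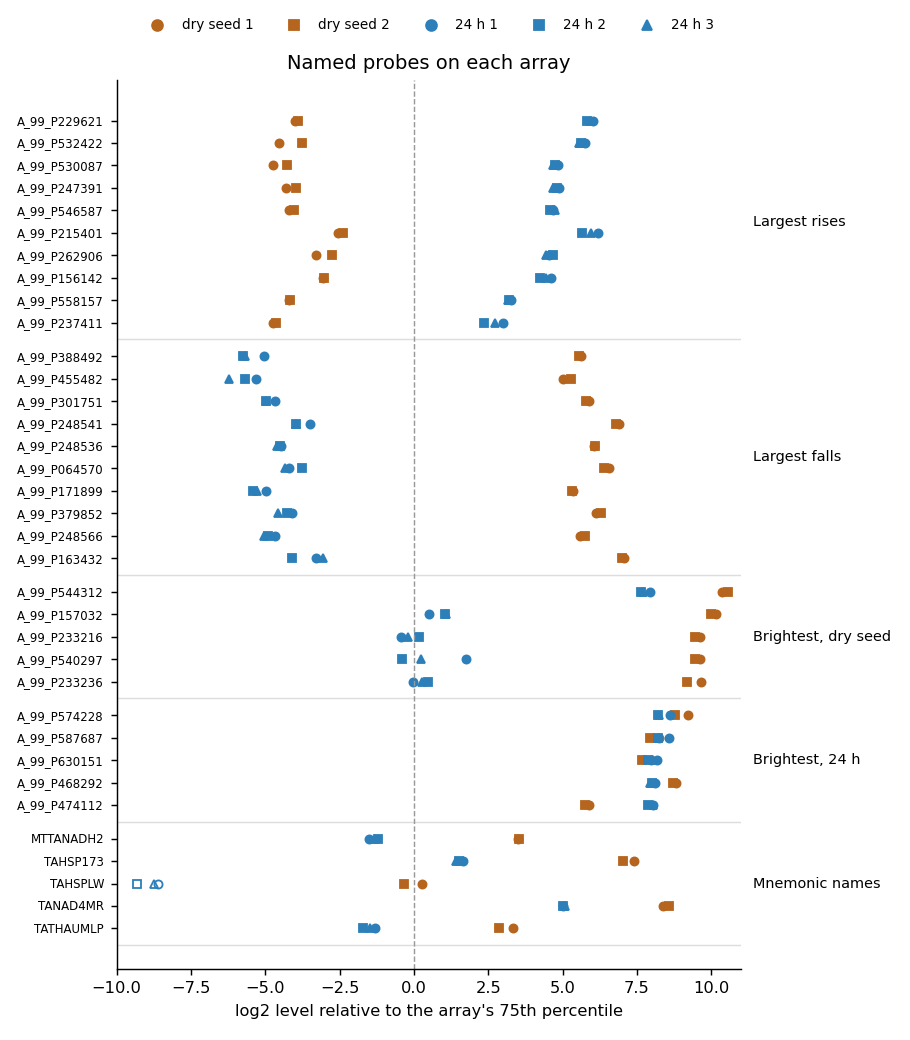
Levels of the named probes on each of the 5 arrays (horizontal axis, log2 signal relative to the array's 75th percentile), with brown symbols for dry seed, blue for 24 h and hollow symbols where a signal was not well above background. The 10 largest rises end between 2.36 and 6.20, the 10 largest falls start between 4.996 and 7.05, and of the 5 brightest dry-seed probes only A_99_P544312 stays near the top at 24 h.

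Some probes crossed the detection limit in the interval. Of 30833 tested probes, those called and well above background on all 24 h arrays and neither dry-seed array numbered 3088, and 275 went the other way. The detection floor lay lower at 24 h, so a probe could appear more easily than disappear. With 1 floor for all arrays, the mean difference in detected probes was 268. The unequal counts therefore do not show that more transcripts appeared than disappeared. Because the dim stage was not measured, the change of such a probe is a bound: its mean in the bright stage against, per array of the dim stage, the lowest signal well above background or its own, whichever was higher. The bound was at least 2-fold for 1934 of the 3088 that appeared, at least 8-fold for 769 and at least 64-fold for 140. For 448 it was below 1, which means that their 24 h level lay under the detection floor of dry seed. The bound was at least 2-fold for all 275 that disappeared and at least 8-fold for 205. Newly detected probes stayed dim as a set: they held 1.43%, 1.39% and 1.503% of the 24 h signal, 4 stood within the 1000 brightest, and the best ranked 624.

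That best placed probe was A_99_P606587 (AB100035), not well above background in dry seed and at 5.31, 4.94 and 5.26 at 24 h. It was at least 1099-fold higher. Its limma adjusted p = 2.07e-05 comes from the fit to dry-seed values below background and does not test this bound. The bounds of A_99_P225456 (TA60107_4565), A_99_P281851 (TA76414_4565), A_99_P193628 (CA645125) and A_99_P226811 (TA60579_4565) were at least 1074-fold, 1048-fold, 720-fold and 671-fold. On the other side A_99_P308741 (TA84282_4565) stood at 3.03 and 3.04 in dry seed and was not well above background on any 24 h array. It was at least 1119-fold lower, and its limma adjusted p = 1.26e-07 likewise tests the fitted change and not the bound. The bound of A_99_P308741 was at least 99.01-fold when scaled to the spike-ins. The bounds of A_99_P435782 (CJ599486), A_99_P013489 (CD919709), A_99_P365251 (TA101785_4565) and A_99_P497427 (TA66520_4565) ran from at least 346-fold to 765-fold lower. As a set, the disappearing probes gave smaller bounds relative to the spike-ins, where the bound reached 2-fold for 80 of the 275 and was below 1 for 129.

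The 5 probes with mnemonic names were all called lower at 24 h, against 27.0% of all tested probes, and they differed in how far. The files give no description with these names and do not spell out their letters. In plants NAD4 is a usual symbol for a mitochondrially encoded subunit of respiratory complex I, and HSP stands for heat shock protein, a class of chaperones. Probe TANAD4MR stood at 8.38 and 8.57 in dry seed and at 4.997, 5.02 and 5.09 at 24 h, and moved from rank 39 to 683. It fell by 10.8-fold (log2 change -3.44, SE 0.12, limma adjusted p = 3.08e-07) with the arrays of a stage close together and the stages far apart. On the spike-in scale its change was 0.06 (SE 0.27, limma adjusted p = 0.829), so its signal per added RNA was not shown to differ.

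The other mnemonic probes were lower on both scales. TAHSP173 stood at 7.41 and 7.03 in dry seed and at 1.63, 1.52 and 1.43 at 24 h, and dropped from rank 157 to 5768 (log2 change -5.69, SE 0.40, limma adjusted p = 6.94e-06). TAHSPLW stood at 0.27 and -0.33 in dry seed and was not well above background on any 24 h array. It was at least 134-fold lower. Scaled to the spike-ins, it was lower by at least 11.9-fold. Its limma adjusted p = 3.95e-07 comes from the fit to 24 h values below background and does not test these bounds. MTTANADH2 stood at 3.51 and 3.54 against -1.52, -1.21 and -1.30, and TATHAUMLP at 3.32 and 2.87 against -1.30, -1.73 and -1.49. Of the 5, TANAD4MR kept the highest rank at 24 h, and none came near the ranks it had in the dry embryo.

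Where a sequence was read by several probes, they mostly told the same story. For 1045 sequence names with at least 2 called probes, all called probes had the same direction in 997, and in 48 they opposed each other. Over the 2192 names with at least 2 tested probes, the median range of the log2 change within a name was 0.58, which is below the 2-fold minimum of a call. Probes of 1 sequence are not independent samples, since they read the same RNA on the same arrays.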

How the data were processed

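The deposited intensity values, 1 scanner file per array, come from 1-colour arrays read by Agilent Feature Extraction 10.7.3.1, per the file headers. The processed signal of a spot is a linear intensity after the software's background subtraction and detrending, with no scaling between arrays. The deposited log2 table of the series, used only as an alternative, holds the authors' log2 values relative to the 75th percentile, centred per probe. Its column medians are 0.47 and 0.51 in dry seed and -0.07, 0.0036 and -0.06 at 24 h, so scale, centring and direction were all found by matching it to the scanner files. In it, 24 h replicates 2 and 3 are exchanged with respect to the scanner files, and 0 columns belonged to other series. Groups follow the sample titles, while the description fields of the imbibed samples give 8 and 16 h in place of 16 and 24 h.

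Control spots and outlier spots were left out, the spots of a probe were averaged, and the log2 processed signal was taken minus the array's 75th percentile. Detection of a probe required the scanner's well-above-background flag on 50% or more of its spots. Probes detected throughout 1 or more of the 3 groups, with at least 2 unflagged arrays per group, were tested. limma 3.58.1 in R 4.3.3 fitted a mean per group on all 8 arrays, with Benjamini-Hochberg adjustment over all 30833 tested probes. The spike-in offset of an array is the median log2 deviation of 8 E1A_r60 probes from their means over all 8 arrays; another 2 of the series were never above background. Where several probes read 1 sequence, each is reported by itself. The limma step was tested on simulated data.

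Probes named in the text are the 10 largest rises and falls among called probes measured on all 5 arrays without overlap of the groups, the 5 brightest of each stage and of both stages, the 5 largest bounds in each direction, and all mnemonic names. Members, lists and rules were chosen with earlier results of these data known. Planned lists by gene function and tissue markers could not be applied, because 0 of 40253 sequence names matched the reference table (IWGSC CS RefSeq v2.1). Alternatives covered scaling, background correction, filters, slide, replicate number, prior, thresholds and leaving out each array. Normexp correction (offset 50) used median spot and background intensities, since the files hold no mean intensities.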

Additional observations from a re-analysis of the deposited data

Results flagged for a closer look

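Some control probes that entered no comparison were brighter at 24 h, whereas most control probes for added RNA were dimmer. The control probe ETG05_66023 stood at 3.39 and 3.46 (log2 processed signal, unscaled) in dry seed and at 4.47, 5.36 and 4.54 at 24 h, a difference of 1.37. Another ETG control, ETG10_236652, went the other way, from 6.91 and 7.52 in dry seed to 5.95, 5.90 and 6.13 at 24 h, a difference of -1.22. The bright-corner control GE_BrightCorner, which marks the array's corners, stood at 10.35 and 9.98 in dry seed and at 12.84, 13.06 and 12.73 at 24 h, a difference of 2.71. The groups did not overlap for any of these probes. They did not overlap for DarkCorner either, a control below background on every array, so the lack of overlap says little. The unscaled wheat signal was also brighter at 24 h, and why ETG05_66023 and GE_BrightCorner were brighter was not tested.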

How the results depend on the processing

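Of 116 values that sum up a comparison under alternatives, 99 kept their side of the threshold, moved by less than the replicate spread or, for counts, stayed within 1.5 times the reported one. The wheat level relative to spike-ins was 3.09 on slide 1 and 3.37 to 3.66 with single arrays left out. The share difference was -2.87 points for the 10 and -7.46 for the 1000 brightest, -7.06 with normexp, and -8.95 to -7.97 with arrays left out. With normexp the brightest probes holding 50% of the signal differed by 187, and with arrays left out by 245 to 288. The interquartile range differed by -0.26 over probes above background on any array, by -0.093 on slide 1 and by 0.63, in the opposite direction, with normexp, against -0.13 to -0.10 with arrays left out. Detected probes differed by 268 with a common floor and by 5178 to 6021 with arrays left out.

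Changed probes numbered 28775 relative to spike-ins, 26688 with no filter on dim probes, where 43600 were tested, and 17111 to 17433 with arrays left out. Higher probes numbered 28005 relative to spike-ins, 4748 with normexp and 5413 with only probes above background on all 5 arrays, where fewer were tested. Lower probes numbered 770 relative to spike-ins, 12591 with normexp and 17678 with no filter. Calls were 52.1% higher as reported, 97.3% relative to spike-ins, 27.4% with normexp and 33.8% with no filter. Of the 17350 calls, 12243 kept their direction with normexp and 1166 were called in the opposite one. The median change of all tested probes was 3.54 relative to spike-ins, -0.20 with median scaling, 0.26 with the 75th percentile of probes above background on all arrays and -0.64 with normexp; the cause was not tested. Leaving out a dry-seed array leaves 1 in that group, which is then assumed to vary like the other groups. With the replicate number as a block, 17443 probes changed, 9017 higher and 8426 lower. Deviations from the group means correlated at 0.04 between same-numbered arrays, for numbers 1 and 2. The deviations of the dry-seed arrays mirror each other, so these values cannot tell whether same-numbered arrays share more than a number.

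Relative to spike-ins the direction turned for TANAD4MR (0.061), A_99_P544312 (0.78), A_99_P574228 (2.85), A_99_P468292 (2.76) and A_99_P517142 (2.93). With quantile scaling A_99_P587687 and A_99_P630151 passed the test, at 1.31 and 1.12. Of 769 values of single probes, 758 kept their call, of which 753 also kept their sign. Sign turned with quantile scaling for A_99_P574228 (0.86), A_99_P468292 (0.50) and A_99_P517142 (0.38), and with median scaling for A_99_P587687 (-0.0051) and A_99_P630151 (-0.051), none past both thresholds in either setting. Dry-seed arrays, dimmer against background, limit what can be said of dim probes.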
